A study of Bos taurus with 22 samples.

Results

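The genes of glycerol phosphate supply followed here were GPD1, PCK1, PCK2, AQP7 and GK, each read by a single probe set of the bovine array. They were taken by gene symbol and make up 5 of the 9155 genes that the array annotation names with 1 symbol. The arrays measured RNA from dorsal subcutaneous white adipose tissue of 11 Holstein heifers, sampled 14 days after their first calving (postpartum, 11 arrays) and 30 days before it (prepartum, 11 arrays). All had been raised on 1 farm, calved at 24 to 28 months of age and received no dietary treatment. The prepartum ration was haylage, hay and concentrate fed ad libitum. The full postpartum ration is not given in the sources used here, so calving, lactation, time and any change of ration cannot be told apart.

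Adipocytes store fatty acids as triglyceride, and each triglyceride molecule needs a backbone of glycerol 3-phosphate. GPD1, the cytosolic glycerol-3-phosphate dehydrogenase, makes it by reducing dihydroxyacetone phosphate, which comes from glucose by glycolysis or from pyruvate and similar precursors by glyceroneogenesis. Glyceroneogenesis runs through phosphoenolpyruvate, which is made by phosphoenolpyruvate carboxykinase in the cytosol (PCK1) or in mitochondria (PCK2). AQP7 is the membrane channel through which fat cells release glycerol during lipolysis, and GK, glycerol kinase, would return free glycerol to glycerol 3-phosphate, although fat cells are known for low activity of this enzyme.

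The values were linear MAS5 signals, scaled by the authors so that the trimmed mean was 125 on every array. Differences and tests are on the scale log2(signal + 7.78), on which fold changes of dim genes are understated, and a change is the postpartum value minus the prepartum value of the same cow. The test was limma's moderated test with cow as a block, adjusted by the Benjamini-Hochberg method over 14410 probe sets that passed a filter on dim signals, with a threshold of 0.05. GPD1, PCK1, PCK2 and AQP7 passed the filter and were tested, and GK did not. Of all probe sets tested, 3.43% passed, 1.98% lower and 1.44% higher postpartum.

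Several arrays held RNA of other tissues. Of 20 skeletal muscle markers, 15 were on the array, 12 of them above the filter on dim signals. None of the 15 was at 0, and their lowest signal was 0.379. Their summed signal was 99640 in the postpartum array of cow 384, 10536 in that of cow 386 and at most 2349 in the other 9 postpartum arrays. In prepartum arrays it was 61628 in cow 387, 7909 in cow 384 and at most 2234 in the other 9. The summed signal of 10 adipocyte markers on the array, among them ADIPOQ and FABP4, ran from 14958 to 34332 postpartum and from 23077 to 35165 prepartum, lowest in cow 384 postpartum and in cow 387 prepartum. The 8 epidermis markers on the array summed to at most 342 postpartum. Prepartum they summed to 10175 in cow 341, 4253 in cow 382, 995 in cow 330 and 922 in cow 331. In the other prepartum arrays they summed to at most 362. After subtraction of group means, the values of the arrays labelled cow 387 correlated at -0.09, against 0.18 to 0.43 in the other 10 cows. These arrays may not come from the same animal, and their muscle marker sums also differed, at 1368 postpartum and 61628 prepartum. The part of either in the low correlation was not tested. Results that rest on cows 384 and 387 are given with and without them.

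GPD1 and PCK2 were lower postpartum and passed the test, AQP7 was lower by a similar amount without passing, PCK1 moved in both directions among the cows, and the dim GK signal was higher in most cows. GPD1, which stands where the glycolytic and glyceroneogenic routes meet, fell to a median signal of 696 postpartum, against 1413 prepartum. Postpartum signals were 237 in cow 341, 284 in cow 360, 356 in cow 382, 595 in cow 347, 631 in cow 346, 696 in cow 330, 725 in cow 386, 930 in cow 338, 1030 in cow 387, 1670 in cow 384 and 2114 in cow 331. Prepartum signals of the same cows in the same order were 1476, 1145, 1413, 886, 1706, 1321, 859, 887, 1418, 1638 and 2392. The periods overlapped, and 7 of 11 postpartum arrays lay below the lowest prepartum array. The mean change was -0.93 log2 units (SE 0.24, 95% confidence interval -1.44 to -0.42, limma adjusted p = 0.0451), a fall of 1.91-fold, with 9 of 11 cows lower.

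The decrease of GPD1 was uneven among the cows. Cows 341, 360, 382 and 346 had changes of -2.60, -1.98, -1.97 and -1.42 log2 units. The prepartum arrays of cows 341 and 382 had the most epidermis marker signal, while those of cows 360 and 346 had little (310 and 331). The part of epidermis RNA in these changes was not tested. Cows 338 and 384 had the only positive changes, 0.07 and 0.03. Without cows 384 and 387 the change of GPD1 was -1.09 (limma adjusted p = 0.0199). Cows 330, 331, 341 and 382 had the most prepartum epidermis marker signal. Without them the change of GPD1 was -0.65 over 7 cows (limma adjusted p = 0.396, where 6 probe sets passed). Without the cow block GPD1 did not pass (adjusted p = 0.101), and it also lost the call when cow 330, 341, 346, 347, 360, 382 or 386 was left out singly (adjusted p from 0.0516 to 0.102).

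**Figure D1:**
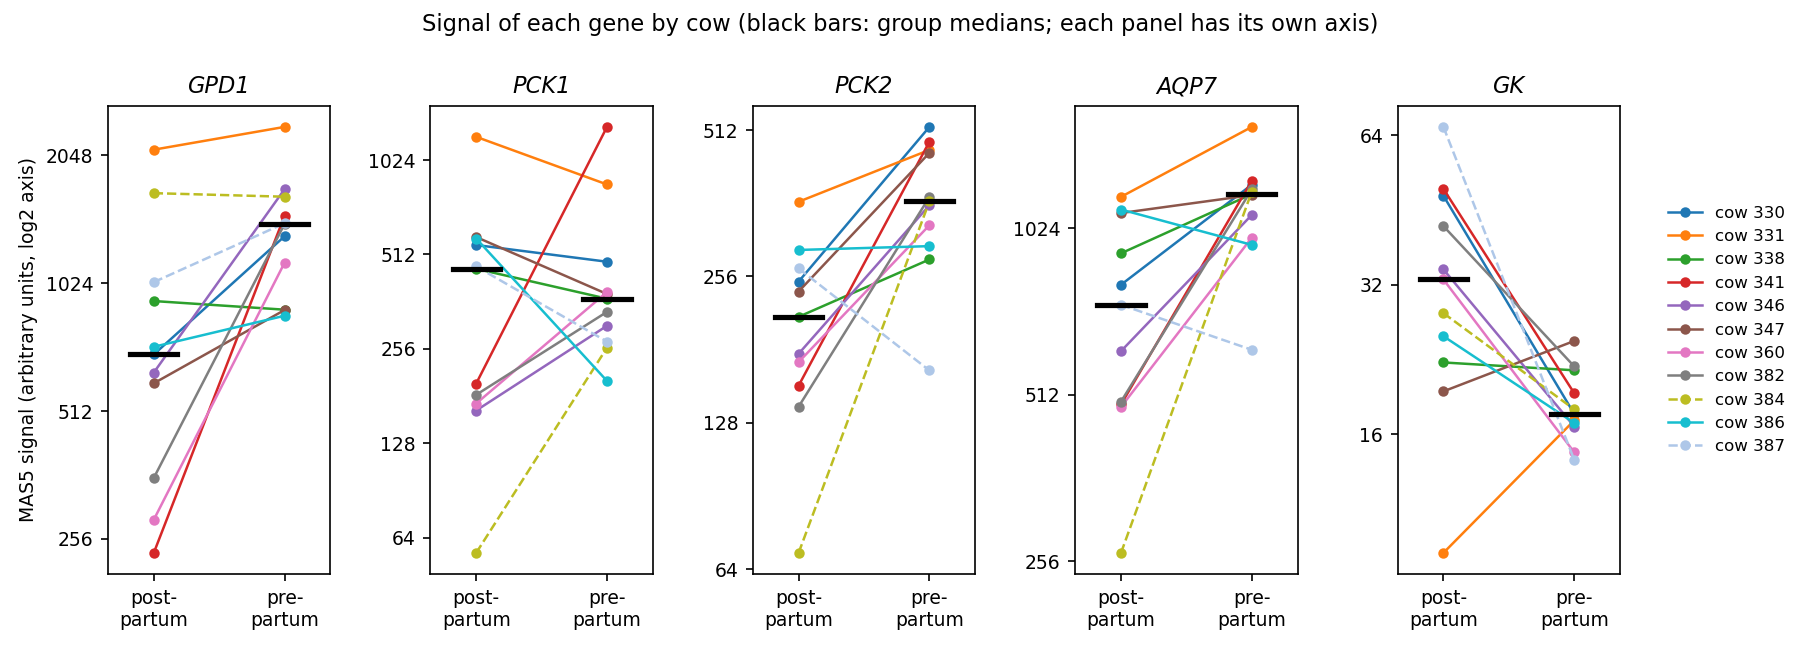
MAS5 signal (log2 axis, arbitrary units) of GPD1, PCK1, PCK2, AQP7 and GK in each cow, postpartum on the left and prepartum on the right of each panel. Lines join the arrays labelled with 1 cow, dashed for cows 384 and 387, and black bars are group medians. The medians of GPD1, PCK2 and AQP7 were lower postpartum, those of PCK1 and GK were higher, and the postpartum values were more spread out.

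PCK2, the mitochondrial phosphoenolpyruvate carboxykinase, fell 1.79-fold. Its postpartum signal ran from 69.1 in cow 384 to 365 in cow 331 (median 211), against 164 in cow 387 to 520 in cow 330 prepartum (median 365). The postpartum signals were 250 in cow 330, 365 in cow 331, 211 in cow 338, 153 in cow 341, 177 in cow 346, 238 in cow 347, 171 in cow 360, 138 in cow 382, 69.1 in cow 384, 290 in cow 386 and 266 in cow 387. In the same order of cows the prepartum signals were 520, 466, 277, 484, 359, 460, 326, 373, 365, 295 and 164. The lowest signal in each period belongs to its array with the most muscle marker signal, that of cow 384 postpartum and that of cow 387 prepartum, and the part of muscle RNA in them was not tested.

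The mean change of PCK2 was -0.84 log2 units (SE 0.21, 95% confidence interval -1.28 to -0.39, limma adjusted p = 0.0414), with 10 of 11 cows lower and cow 387 higher by 0.67. Without cows 384 and 387 all 9 remaining cows were lower, with changes from -1.62 to -0.03 log2 units, and the mean change was -0.84 (limma adjusted p = 0.00432). PCK2 lost the call when cow 330, 331, 338, 341, 346, 347, 360 or 382 was left out singly (limma adjusted p from 0.0520 to 0.0939). With the median muscle marker level as a covariate, 676 probe sets passed. In that fit the change was -0.79 for PCK2 (limma adjusted p = 0.0143), -0.93 for GPD1 (0.0386) and -0.31 for PCK1 (0.622). The change of PCK2 correlated with that of the muscle markers at r = -0.66 (permutation p = 0.0307, adjusted p = 0.246). Without cows 384 and 387 r was 0.36.

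PCK1, the cytosolic enzyme, was lower in 5 cows and higher in 6. Its postpartum signals were 549 in cow 330, 1214 in cow 331, 461 in cow 338, 198 in cow 341, 163 in cow 346, 582 in cow 347, 171 in cow 360, 183 in cow 382, 57.2 in cow 384, 575 in cow 386 and 469 in cow 387. The prepartum signals in the same order were 485, 856, 370, 1306, 303, 383, 388, 336, 258, 202 and 270. The postpartum values fell on either side of a gap between 198 and 461, while 9 of the 11 prepartum values lay between 202 and 485. The highest prepartum value, in cow 341, was followed by a low postpartum value. That prepartum array also had the highest epidermis marker signal, and the part of epidermis RNA in it was not tested.

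Changes of PCK1 ran from -2.67 log2 units in cow 341 to 1.47 in cow 386, with a median of 0.17 and a mean of -0.34 (SE 0.32, 95% confidence interval -1.03 to 0.35). PCK1 did not pass (limma adjusted p = 0.607, and 0.654 without cows 384 and 387). The interval holds a fall of 1 log2 unit as well as a rise of 0.35, so these arrays do not settle the direction of the mean. The SD of the change between cows, 1.28, was the largest of the 5 genes.

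AQP7, the glycerol channel, had a mean change of -0.69 log2 units (SE 0.19, 95% confidence interval -1.09 to -0.28), 1.61-fold, with 9 of 11 cows lower, and narrowly missed the threshold (limma adjusted p = 0.0597). Its postpartum signals were 810 in cow 330, 1168 in cow 331, 923 in cow 338, 492 in cow 341, 614 in cow 346, 1092 in cow 347, 487 in cow 360, 498 in cow 382, 265 in cow 384, 1108 in cow 386 and 745 in cow 387. The prepartum signals in the same order were 1229, 1563, 1181, 1249, 1084, 1177, 986, 1205, 1194, 956 and 618. The prepartum arrays other than that of cow 387 held within 956 to 1563, and 5 postpartum arrays lay below the lowest prepartum value.

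Cows 386 and 387 were the exceptions for AQP7, with changes of 0.21 and 0.27 log2 units. Without cows 384 and 387 the change of AQP7 was -0.63 and passed (limma adjusted p = 0.0193, where 7.43% of all probe sets passed, 3.8% lower and 3.62% higher). It also passed without cow 384, 386 or 387 singly (limma adjusted p = 0.0473, 0.0465 and 0.0306). Fewer adipocytes in a sample and less RNA of a gene per adipocyte cannot be told apart in these bulk samples.

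GK stood just under the filter on dim signals, with a mean level of 5.00 log2 units where the filter lay at 5.05. Its postpartum signals were 48.4 in cow 330, 9.23 in cow 331, 22.3 in cow 338, 49.9 in cow 341, 34.4 in cow 346, 19.5 in cow 347, 32.8 in cow 360, 42.0 in cow 382, 28.1 in cow 384, 25.2 in cow 386 and 66.5 in cow 387. The prepartum signals in the same order were 17.6, 17.1, 21.5, 19.4, 16.6, 24.7, 14.7, 21.9, 18, 16.9 and 14.2. Prepartum values were tightly grouped, and 8 of 11 postpartum arrays lay above the highest of them, while cow 331 was lowest of all. The mean change was 0.59 log2 units (SD 0.66, n = 11 cows), with 9 of 11 cows higher. It depended on the pseudocount, from 0.36 with 32 to 0.73 with 1. With no filter, where all 24016 bovine probe sets were tested and 1.58% passed, 0.958% lower and 0.62% higher, GK did not pass (limma adjusted p = 0.142).

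The spread between cows was larger postpartum for all 5 genes. The SD of the log2 level was 0.97 postpartum and 0.46 prepartum for GPD1, 1.2 and 0.77 for PCK1, 0.62 and 0.46 for PCK2, 0.65 and 0.33 for AQP7, and 0.59 and 0.17 for GK. Among all probe sets kept by the filter, 72.9% also had a larger postpartum SD, with a median ratio of 1.26, so the direction was shared with most of the array. The ratio for the 5 genes ran from 1.34 (PCK2) to 3.45 (GK) and was not tested.

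Changes of PCK1, PCK2 and AQP7 ran together from cow to cow. Pearson's r over 11 cows was 0.92 between PCK2 and AQP7 (Spearman's rho 0.88), 0.90 between PCK1 and AQP7 (rho 0.95) and 0.82 between PCK1 and PCK2 (rho 0.82). GPD1 followed them less closely over all cows, with r of 0.62 to PCK1, 0.36 to PCK2 and 0.37 to AQP7, and more closely without cows 384 and 387, with r of 0.91, 0.87 and 0.89. In cow 384 PCK1, PCK2 and AQP7 changed by -2.03, -2.28 and -2.14 log2 units and GPD1 by 0.03, in the pair whose postpartum array had the highest muscle marker signal. The part of muscle RNA in these values was not tested. GK changed against GPD1 (r of -0.45, and -0.74 without cows 384 and 387). These are descriptions over cows whose values share an array, its scaling and its mixture of tissues.

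**Figure D2:**
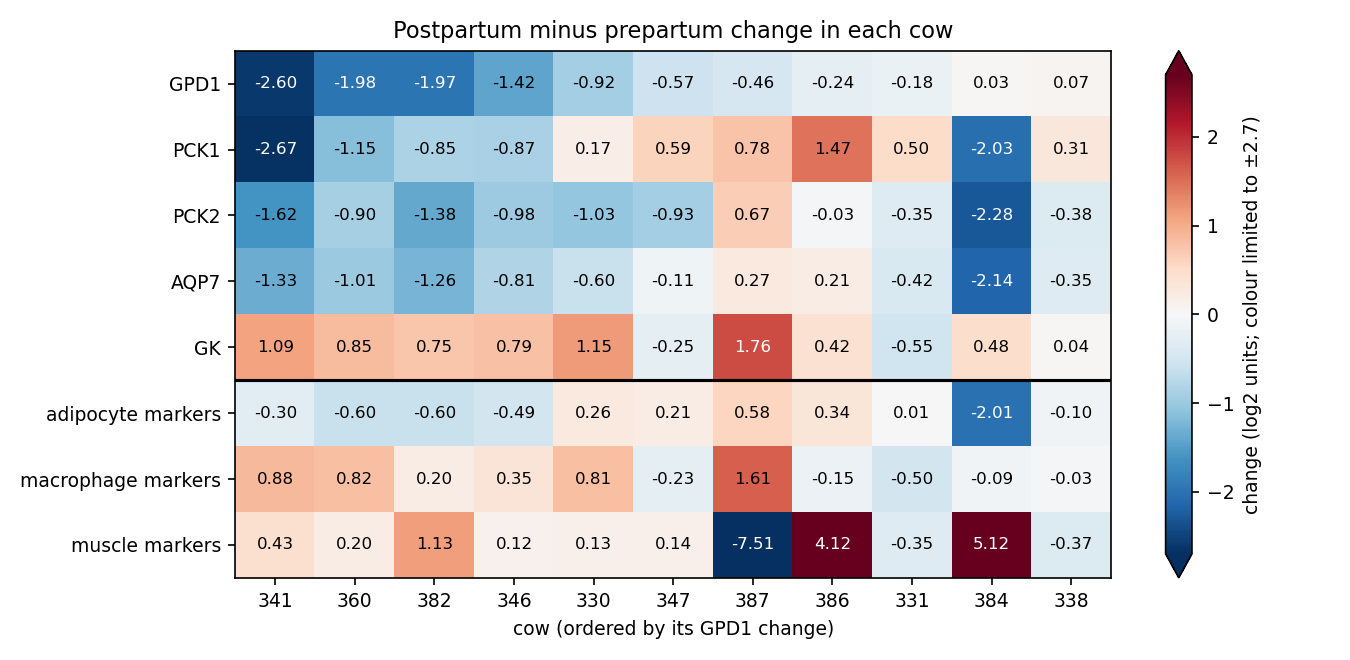
Change (log2 units, postpartum minus prepartum) of the 5 genes and of the median adipocyte, macrophage and skeletal muscle marker in each cow, with cows ordered by the change of GPD1. Blue is lower and red is higher postpartum. PCK1, PCK2 and AQP7 are all strongly negative in cows 341 and 384, whereas GPD1 is strongly negative in cow 341 and near 0 in cow 384.

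Set against each other within cows in 3 comparisons, the changes of single genes did not differ past the threshold. The test was an exact two-sided sign-flip test over 11 cows. The change of GPD1 minus that of PCK1 averaged -0.59 log2 units (SD 1.01), negative in 9 of 11 cows (exact p = 0.0850, adjusted over the 3 comparisons p = 0.127). It was -0.86 without cow 384 (exact sign-flip test, adjusted p = 0.0117) and -0.81 without cows 384 and 387 (exact sign-flip test, adjusted p = 0.0234). The change of PCK1 minus that of PCK2 averaged 0.50 (SD 0.78), positive in 9 of 11 cows (exact p = 0.0625, adjusted p = 0.127), and was 0.65 without cow 341 (exact sign-flip test, adjusted p = 0.0293) and 0.57 without cows 384 and 387 (exact sign-flip test, adjusted p = 0.0820). The change of AQP7 minus that of GPD1 averaged 0.24 (SD 0.94), positive in 8 of 11 cows (exact p = 0.420, adjusted p = 0.420). It was 0.49 without cow 384 (exact sign-flip test, adjusted p = 0.0264) and 0.46 without cows 384 and 387 (exact sign-flip test, adjusted p = 0.0527). In each comparison, 10 of the 11 settings with 1 cow left out did not pass. The highest adjusted p among them by the exact sign-flip test was 0.243, 0.243 and 0.680, in the order given here.

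Markers of other cell types were set beside the 5 genes as the median change of each of 8 marker lists, giving 40 relations over 11 cows. The change of AQP7 correlated with that of the adipocyte markers at r = 0.92 (permutation p = 0.0000600, adjusted over the 40 relations p = 0.00120; rho 0.88, permutation p = 0.000770, adjusted p = 0.0154), and at r = 0.83 without cows 384 and 387, which lay farthest from the median. PCK2 stood at r = 0.81 (permutation p = 0.00219, adjusted p = 0.0292; rho 0.71, permutation p = 0.0176, adjusted p = 0.176), and at 0.54 without these cows, and PCK1 at r = 0.74 (permutation p = 0.00651, adjusted p = 0.0651; rho 0.82, permutation p = 0.00306, adjusted p = 0.0408) and 0.74 without them. GPD1 stood at r = 0.09 over 11 cows (permutation p = 0.812; rho 0.24, permutation p = 0.487) and 0.72 without them.

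The adipocyte markers themselves did not move as 1 group. Of 14 listed, 10 were tested, 6 with a negative and 4 with a positive change, and the median was -0.26 log2 units. LEP, which encodes the hormone leptin, and LPL, the lipoprotein lipase that releases fatty acids for uptake, passed as lower, while the change of ADIPOQ, the adiponectin gene, was 0.00 and that of FABP4, a fatty acid binding protein, 0.08. With the median adipocyte marker level as a covariate, 634 probe sets passed. In that fit the change was -0.61 for PCK2 (limma adjusted p = 0.0228) and -0.46 for AQP7 (limma adjusted p = 0.0150). It was -0.90 for GPD1 (limma adjusted p = 0.0594) and -0.01 for PCK1 (limma adjusted p = 0.988).

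GK changed with the macrophage and monocyte markers. Of 14 listed, 10 were on the array and tested. All 10 had a positive mean change (median 0.34 log2 units), where 3676 of all 6984 genes tested had one. None passed, and their median level was higher in 6 of 11 cows. Their summed signal was 2188 to 12192 postpartum (median 4558) and 2242 to 5694 prepartum (median 3744), highest in the postpartum array of cow 387, which also had the highest GK. None was at 0, and the lowest signal of any was 66.2. Across cows the change of GK correlated with the median change of these markers at r = 0.93 (permutation p = 0.0000200, adjusted p = 0.000800; rho 0.95, permutation p = 0.0000600, adjusted p = 0.00240), and at r = 0.86 without cows 387 and 331, which lay farthest from the median. For single markers r ran from 0.70 for FCER1G, an Fc receptor chain, to 0.97 for TYROBP, a signalling adaptor of myeloid cells. The part of macrophage RNA in the change of GK was not tested. With the same markers r over 11 cows was -0.45 for GPD1, -0.19 for PCK1, 0.23 for PCK2 and 0.07 for AQP7. None of these passed (permutation test, adjusted p from 0.504 to 0.917). Without cows 384 and 387 r was -0.76 for GPD1, -0.73 for PCK1, -0.67 for PCK2 and -0.68 for AQP7.

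**Figure D3:**
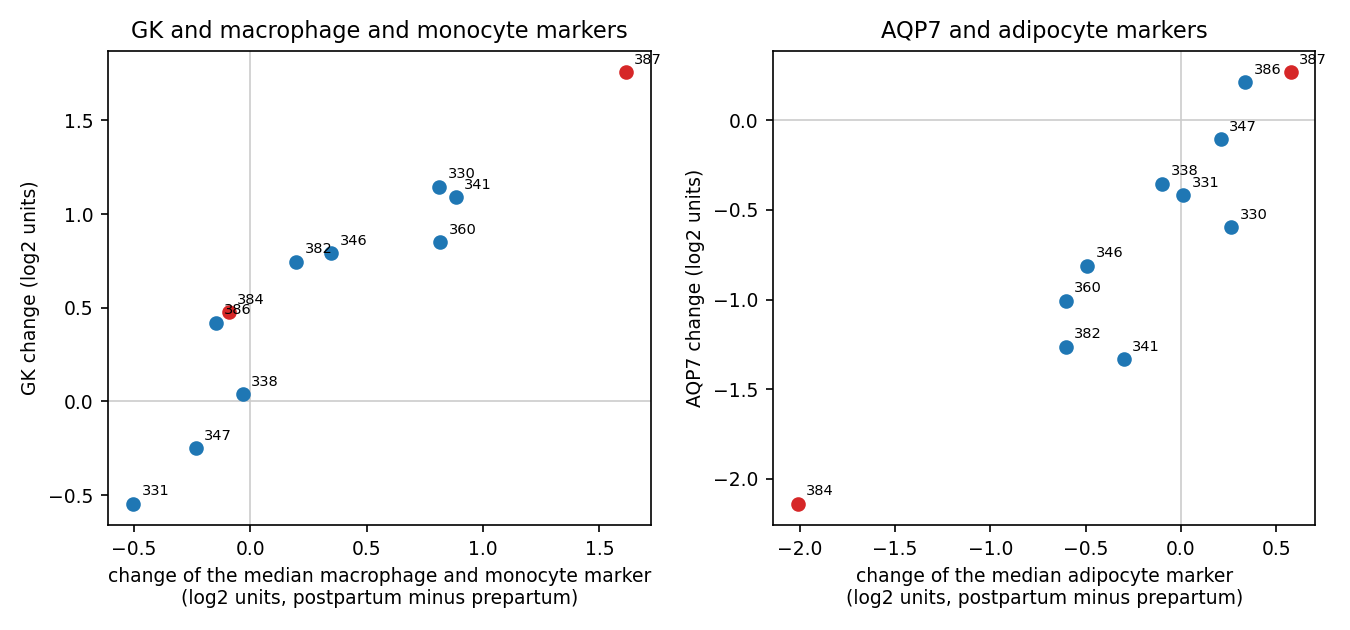
Left, the change of GK against the change of the median macrophage and monocyte marker in each of 11 cows. Right, the change of AQP7 against that of the median adipocyte marker. All values are log2 units, postpartum minus prepartum, and cows 384 and 387 are red. GK was above 0 in 9 cows, and AQP7 lay below 0 in 9 cows.

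None of the 30 relations of the 5 genes with muscle, neutrophil, endothelial, fibroblast, erythrocyte or epidermis markers had an adjusted p under 0.05. For epidermis the median rests on 2 tested markers, neither of which passed: KRT10, with a change of -1.77 (limma adjusted p = 0.102), and KRT5, with a change of -0.02 (limma adjusted p = 0.959). The correlation of GPD1 with this median was 0.59 (permutation p = 0.0570, adjusted p = 0.326; rho 0.32, permutation p = 0.341, adjusted p = 0.902), and -0.11 without cows 341 and 382.

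The postpartum change was also compared between 2 sets of cows that a code of unstated meaning at the end of the titles divides, 5 cows in set 1 and 6 in set 2. GPD1 averaged -0.83 log2 units in set 2 (SD 0.76) and -1.05 in set 1 (SD 1.17), PCK2 -0.84 (SD 1.04) and -0.84 (SD 0.52), AQP7 -0.72 (SD 0.91) and -0.64 (SD 0.51), and PCK1 -0.22 (SD 1.27) and -0.48 (SD 1.41). None of the 4 differences passed limma's interaction test (adjusted p from 0.997 to 0.9996), nor did any of the 14410 probe sets tested (0% called, 516 at an unadjusted p under 0.05). For GK the means were 0.89 in set 2 (SD 0.50) and 0.24 in set 1 (SD 0.71), and this was not tested.

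Genes whose change was most like that of each of the 4 tested genes were found among the 6983 other genes tested. AQP7 was matched most closely by TIMP4, an inhibitor of matrix metalloproteinases, at r = 0.99 over 11 cows, which also ranked first without cows 384 and 387, and then by CDH13 (r = 0.96) and TNFRSF21 (r = 0.96). TIMP4 also stood near PCK1 (r = 0.92), after ECHS1, a mitochondrial enoyl-CoA hydratase (r = 0.92), and ELOVL6, a fatty acid elongase (r = 0.92). PCK2 was matched by NID2, a basement membrane protein (r = 0.97), KCTD1 (r = 0.97) and LGALS3BP (r = 0.96). GPD1 was matched by TECR, the last enzyme of fatty acid elongation (r = 0.93), ETFA, a subunit of the electron transfer flavoprotein (r = 0.91 and first, at 0.98, without cows 384 and 387), and RBM38 (r = 0.91). The other matches ranked lower without cows 384 and 387. For AQP7 the ranks were 19 (CDH13) and 20 (TNFRSF21), and for GPD1 13 (TECR) and 11 (RBM38). For PCK1 they were 18 (ECHS1), 19 (ELOVL6) and 3 (TIMP4, also 3 over 11 cows). For PCK2 they were 7 (NID2), 20 (KCTD1) and 9 (LGALS3BP). None of these 11 genes passed the test of the postpartum change (limma adjusted p from 0.0538 for TNFRSF21 to 0.932 for KCTD1), and the correlations are descriptions of the best of many matches.

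The 8 lists of other genes around glycerol phosphate held 65 genes, of which 50 were on the array and 43 were tested. Of these 4 were called lower and none higher, where 3.71% of the 6984 genes tested passed, 2.16% lower and 1.55% higher. The median change of the 43 genes was -0.11 log2 units, against 0.01 for all genes tested. Of the 43, 28 had a negative and 15 a positive change. Among all 6984 genes tested, 3308 had a negative and 3676 a positive change. Without cows 384 and 387, 9 of the 43 were called lower and none higher, where 8.18% of all genes passed, 4.35% lower and 3.82% higher. The 9 were SLC2A1, ALDOC, PC, GOT1, PGK1, GPAM, AGPAT2, AGPAT3 and DGAT2. The number called lower was 2 without cow 341, 346, 382 or 386, where 263, 247, 242 and 384 of all probe sets passed. It was 8 without cow 384, where 969 of all probe sets passed, against 494 with every cow kept.

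The steps from glucose to triose phosphate feed the dihydroxyacetone phosphate that GPD1 reduces. Of 10 tested genes 2 were called lower and 9 had a negative change (median -0.14). The glucose transporter SLC2A1 had a change of -1.33 log2 units (SE 0.28, limma adjusted p = 0.0183) and was lower in 10 of 11 cows, and ALDOC, an aldolase that splits fructose bisphosphate into triose phosphates, fell by 0.55 (SE 0.13, limma adjusted p = 0.0309) in 11 of 11 cows. TPI1, which interconverts the triose phosphates, had a change of -0.10 and did not pass.

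In the lists on either side of the carboxykinases, oxaloacetate supply and the steps from phosphoenolpyruvate to triose phosphate, no gene passed over 11 cows. The 6 tested genes of oxaloacetate supply had a median of -0.06, and PC, pyruvate carboxylase, which makes the oxaloacetate used by both carboxykinases, had the largest change of them, -0.57 (SE 0.17, limma adjusted p = 0.0796). PC passed without cows 384 and 387, with a change of -0.49 (limma adjusted p = 0.0149), and so did GOT1 of the same list (-0.31, limma adjusted p = 0.0256). All 4 genes between phosphoenolpyruvate and triose phosphate had a negative change (median -0.24). The largest was that of PGK1, phosphoglycerate kinase, at -0.28 (SE 0.11, limma adjusted p = 0.175), which passed without cows 384 and 387 (-0.34, limma adjusted p = 0.0115).

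Downstream, GPAM, the mitochondrial acyltransferase that takes the first step from glycerol 3-phosphate, fell by 1.37 log2 units (SE 0.35, limma adjusted p = 0.0476), and AGPAT2, which adds the next acyl chain, fell by 0.89 (SE 0.17, limma adjusted p = 0.0131). They were the calls among 9 tested genes of glycerol phosphate use, of which 4 had a negative and 5 a positive change (median 0.07). GPD1 and GPAM, which act at adjoining steps, both fell. GPAT3 and GPAT4, other acyltransferases of the step that GPAM takes, had positive changes that did not pass. These were 0.52 for GPAT3 (SE 0.17, limma adjusted p = 0.107) and 0.07 for GPAT4 (limma adjusted p = 0.728).

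No gene passed in the 4 remaining lists. PGP, a phosphatase reported to split glycerol 3-phosphate, had a change of -0.18 (limma adjusted p = 0.692), and GPD1L and GPD2, the other glycerol phosphate dehydrogenases, lay below the filter. AQP3, another glycerol channel, had the largest change, 0.40, of the 2 tested glycerol channels and kinases (limma adjusted p = 0.505). In glycerol release the lipase PNPLA2 had a change of -0.20 (limma adjusted p = 0.512). Among 9 tested regulators of PCK1 transcription the median was 0.00 and PPARG, the adipocyte nuclear receptor, had the largest change, -0.25 (limma adjusted p = 0.519).

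**Figure D4:**
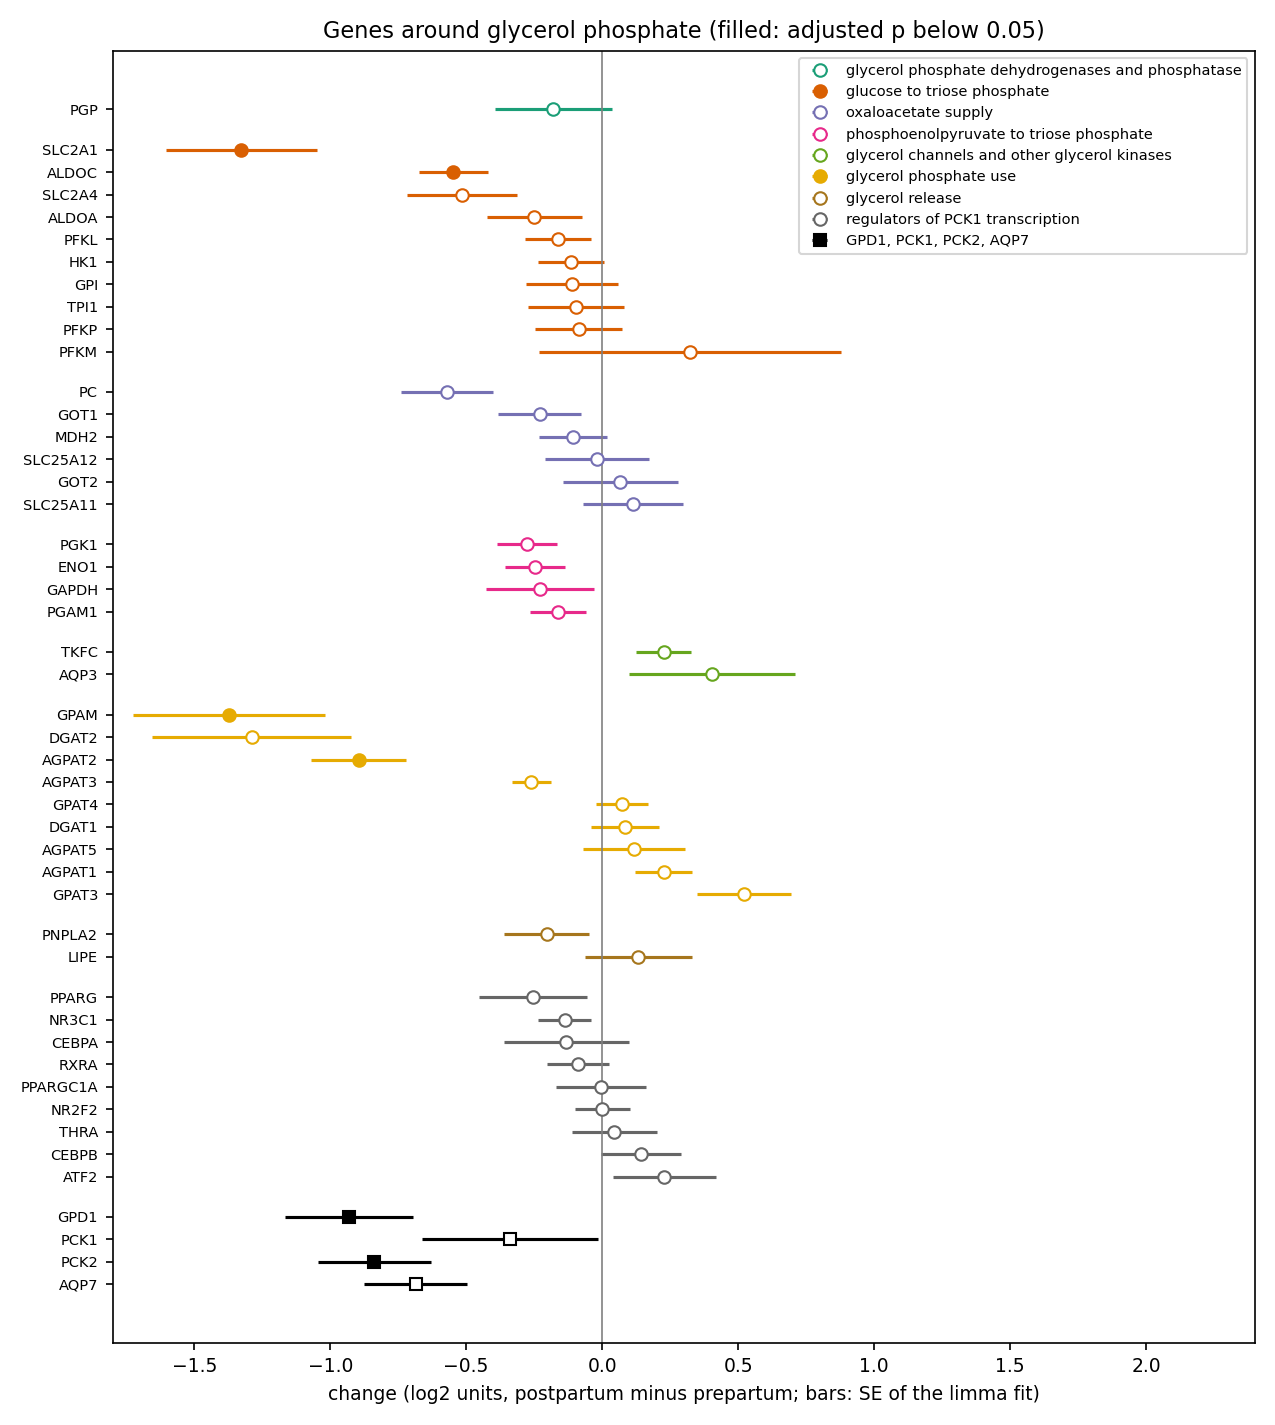
Change (log2 units, postpartum minus prepartum, with the SE of the limma fit) of the 43 tested genes around glycerol phosphate, grouped by list, and of GPD1, PCK1, PCK2 and AQP7 (squares). Filled symbols passed the adjusted threshold: SLC2A1, ALDOC, GPAM, AGPAT2, GPD1 and PCK2 are filled, all to the left of 0.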

How the data were processed

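The authors deposited 1 table of linear signal intensity values for 22 arrays, made with MAS5, which the submitters' processing notes name without version or settings. Trimming 2% from both ends left a mean of 125 in all 22 arrays, which shows scaling of whole arrays. Median bovine signals ran from 39.9 to 47.4. Arrays give no read depth, and their number limits the precision.

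Of 24128 probe sets, 112 controls were left out. Among the other 24016, 13292 had 1 gene symbol, 86 several and 10638 none; 13263 symbols were updated by Entrez identifier and 2 by accession from a RefSeq table of the ARS-UCD2.0 assembly, and no coordinates were used. The pseudocount was 7.78, the 20th percentile of signal in the median array. The filter kept the 14410 probe sets with a mean log2 level at or above percentile 40. For counts of genes, the brightest kept probe set stood for each of 6984 genes. Tests used limma (version 3.58.1, R version 4.3.3), with cow as a fixed block and a variance trend on intensity, and were tested on simulated data. The cow number in the titles pairs the arrays, as the series design describes, with the correlations given above. Single relations used 100000 permutations. Figures used matplotlib 3.10.9.

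Genes were named by rule: the 5 genes, from each list up to 3 called genes or else the gene with the largest change, and 3 most alike genes each. TPI1, GPAT3, GPAT4, GOT1, AGPAT3, DGAT2, KRT10, KRT5, ADIPOQ, FABP4, LEP, LPL, FCER1G and TYROBP, which the rule does not give, were chosen after their values were seen. The genes and lists were chosen with earlier results of these data known. Alternatives varied the block, pseudocount, normalization, filter, variance model, test, array weights, covariates, array set and left-out cows.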

Additional observations from a re-analysis of the deposited data

How the results depend on the processing

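The adipocyte marker covariate was chosen after the data were seen, and the other alternatives were planned. No result changed its direction. GPD1 did not pass with no replicate block (change -0.93, adjusted p = 0.101), no filter (-0.93, adjusted p = 0.0630), no intensity trend (-0.93, adjusted p = 0.0527), the exact signed-rank test (-0.93, adjusted p = 0.0854), the adipocyte covariate (-0.90), array set 1 alone (-1.05, adjusted p = 0.199), array set 2 alone (-0.83, adjusted p = 0.315) or without cows 330, 331, 341 and 382 (-0.65, adjusted p = 0.396). PCK2 did not pass with no filter (-0.84, adjusted p = 0.0573), the exact signed-rank test (-0.84, adjusted p = 0.0978), array set 1 alone (-0.84, adjusted p = 0.0748), array set 2 alone (-0.84, adjusted p = 0.430) or without the same 4 cows (-0.69, adjusted p = 0.439). AQP7 passed with array weights (-0.55, adjusted p = 0.0366), the muscle marker covariate (-0.65, adjusted p = 0.0373), the adipocyte covariate (-0.46) and without cows 384 and 387 (-0.63). The settings with cows left out rest on fewer samples, and that with no filter adjusts over more probe sets. The cause of these changes was not tested.

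Leaving out single cows gave changes of -1.03 to -0.76 for GPD1, -0.99 to -0.69 for PCK2, -0.78 to -0.54 for AQP7, -0.52 to -0.11 for PCK1 and 0.48 to 0.71 for GK. PCK1 did not pass in any of its 26 alternatives, and GK kept its direction in each of its 19. The difference between GPD1 and PCK1 lay between -0.86 and -0.48 with 1 cow left out and at -0.81 when cows 384 and 387 were, that between PCK1 and PCK2 was 0.40 to 0.65, and that between AQP7 and GPD1 was 0.14 to 0.49. In array set 1 alone, 5 cows allow an exact sign-flip p no lower than 0.0625. Each of the 5 genes has a single probe set, so averaging probe sets of a gene was not run.

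The number of probe sets that passed, 494, became 1076 with array weights, 285 with the exact signed-rank test, 69 by limma from the cows of array set 1, 0 by limma from those of array set 2 (1526 at an unadjusted p under 0.05), 1070 when cows 384 and 387 were left out, 6 when cows 330, 331, 341 and 382 were, and between 242 and 969 when 1 cow was. Against 4 pathway genes called lower there were 1 with no replicate block, 8 with array weights, 1 with the exact signed-rank test, 9 when cows 384 and 387 were left out, 0 by limma when cows 330, 331, 341 and 382 were, 0 by limma in either array set, 7 with the adipocyte covariate and 2 to 8 without single cows. Against 0 called higher there were 1 with array weights and 2 with the adipocyte covariate. Of all probe sets, 338 passed with no replicate block and 634 with the adipocyte covariate. The replicate block changed no call of PCK1, PCK2 or AQP7, and GK was not run without it.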
